A study of Mus musculus with 9 samples.

Results

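A set of 10 genes that mark or regulate the dental mesenchyme was followed in the enamel organs of 5 mice reared under early life adversity (ELA) and 4 control mice. Its members were chosen by name: the transcription factors Twist1, Twist2, Prrx1, Prrx2, Lhx6, Lhx8, Barx1 and Pax9 and the PDGF receptors Pdgfra and Pdgfrb, which make 10 of the 54532 genes in the count table. All 10 had enough counts to be tested. The pups were males of a C57BL/6 background at postnatal day 12, born to Crh-IRES-Cre dams and Ai14 tdTomato sires, so that mice of both groups carried both alleles. ELA litters had limited bedding and nesting material from postnatal day 2 until collection, and control litters were kept in standard cages. Enamel organs were dissected from the first molars and each mouse gave 1 RNA-seq library, so the samples are whole tissue pieces and not sorted cells.

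The tooth forms from an oral epithelium, which gives rise to the enamel organ, and from a neural crest-derived mesenchyme, which gives rise to the pulp, the dentin-forming odontoblasts and the dental follicle. Most of the 8 transcription factors are known as mesenchymal genes of the embryonic jaw: TWIST and PRRX proteins help keep crest cells undifferentiated, LHX6, LHX8 and BARX1 pattern the molar-forming mesenchyme, and PAX9 is required for the tooth germ to pass the bud stage. The PDGF receptors are tyrosine kinases that bind PDGF ligands, with the alpha receptor broad in craniofacial mesenchyme and the beta receptor typical of pericytes and fibroblasts.

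Depth ran from 18056774 to 32110160 counts for ELA and from 18683431 to 20831736 counts for control libraries, and 15909 genes were compared with edgeR's quasi-likelihood test. The enamel organ label was met in every library, since Amelx, the amelogenin gene, was at 8229 CPM or more (counts per 1000000 counts in tested genes, with TMM scaling). Mesenchyme was present in every library as well: Dspp, which encodes the dentin matrix protein of odontoblasts, ranged from 385.2 to 3659 CPM. ELA mouse 4 stood apart by its neuronal markers, whose summed level was 591.3 CPM against 54.4 to 101.9 CPM in the other 8 libraries. The sample titles carry a number that ELA mice 1 and 2 share, as do ELA mice 3 to 5, control mice 1 and 2, and control mice 3 and 4. The labels do not say what this number means, and each group has 2 numbers of its own. Pups that share a number may share a litter, and p-values over mice, which measure the spread between these pups, would then be too small. With counts summed per number, 2 sums against 2, none of the 10 genes passed the adjusted p, and 5 of all tested genes did.

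In ELA enamel organs the estimate was below control for all 10 genes, but none passed an adjusted p of 0.05 in edgeR, DESeq2 or limma-voom. The median log2 fold change of the 10 genes was -0.46, while that of all tested genes was 0.013 and 47.4% of them had a negative value. The 10 genes were chosen with earlier results of these data known, so this comparison is a description and not independent evidence. The adjusted p over all tested genes ranged from 0.452 to 0.999 for the 10 genes, and 0.0629% of all tested genes passed that threshold. At an unadjusted p below 0.05, 4 of the 10 were lower (Twist2, Prrx1, Pax9 and Pdgfrb) and none was higher in edgeR, where 2.89% of all tested genes were lower. The count was 6 in DESeq2, where 3.17% of all genes with a p were lower, and 5 in limma-voom, where 3.29% were. It depended on single mice, and the share of all genes is given after each count. It was 8 without ELA mouse 5 (3.76%), 2 without ELA mouse 1 (3.34%), 2 without control mouse 2 (1.99%) and 1 without control mouse 4 (2.78%). Without ELA mouse 4, the library with neuronal markers, it was 4 (3.01%). In bulk tissue, fewer mesenchymal cells and less RNA per cell cannot be told apart.

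**Figure D1:**
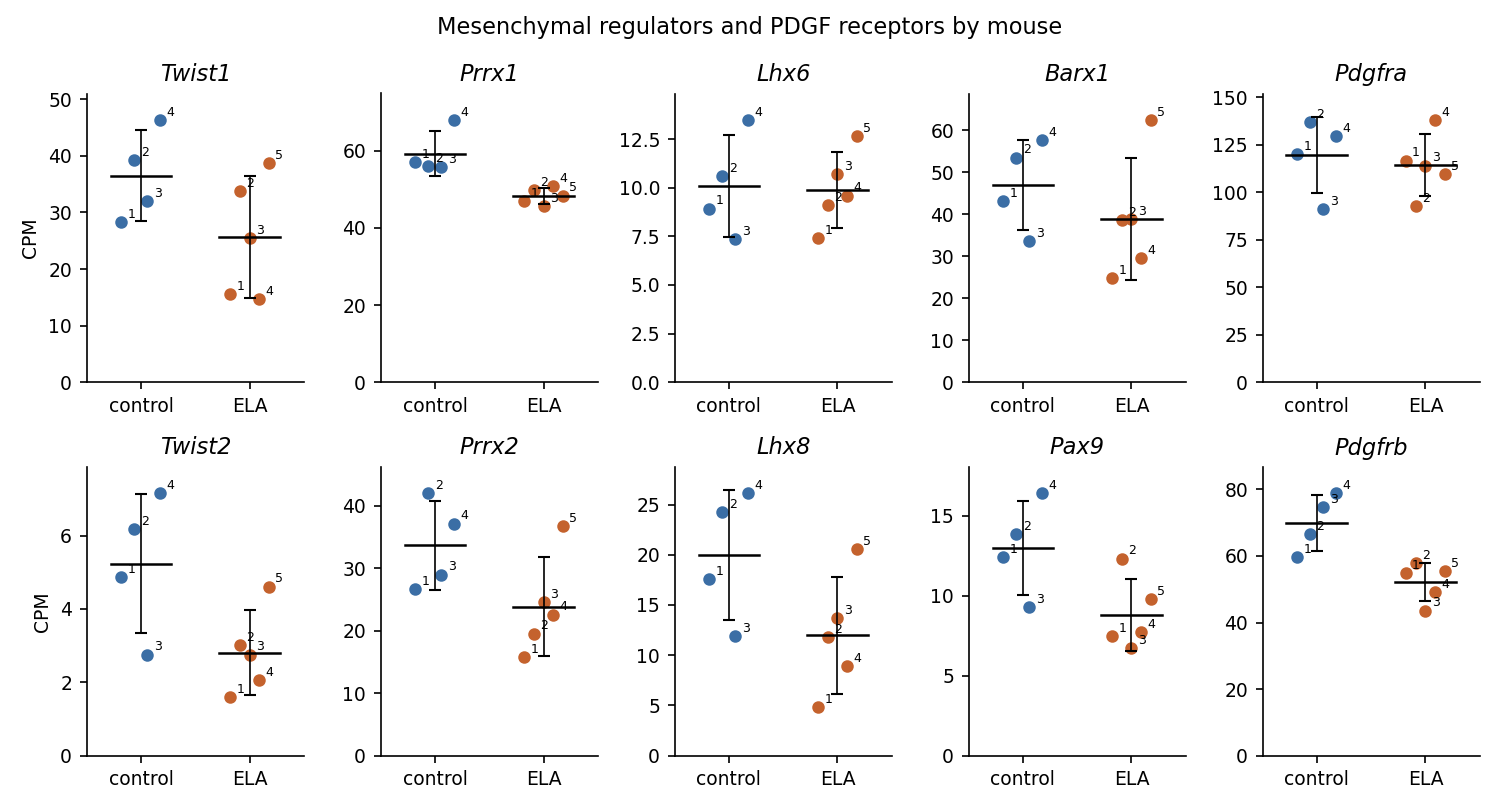
CPM of each of the 10 genes (vertical axes, from 0) in control and ELA mice, with 1 numbered point per mouse, a line at the group mean and bars of 1 SD (n = 4 control and 5 ELA). The groups are separate for Prrx1 and Pdgfrb and overlap for the other 8 genes.

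Twist1 and Twist2 encode basic helix-loop-helix factors, and Twist2 had the largest difference of the 10 genes. In ELA mice 1 to 5, Twist2 was at 1.59, 3.02, 2.76, 2.06 and 4.61 CPM, and in control mice 1 to 4 at 4.86, 6.18, 2.76 and 7.15 CPM. All 5 ELA mice were below control mice 1, 2 and 4, while control mouse 3 lay among the ELA values. Its ELA mean of 2.81 ± 1.16 CPM (SD, n = 5) compares with a control mean of 5.24 ± 1.90 CPM (SD, n = 4), and the log2 fold change was -0.89 (SE 0.35). Its unadjusted p was 0.0265 and its adjusted p 0.668 in edgeR's quasi-likelihood test. Twist1 was at 15.5, 33.8, 25.5, 14.6 and 38.7 CPM in ELA mice 1 to 5 and at 28.3, 39.3, 31.97 and 46.4 CPM in control mice 1 to 4. ELA mice 1, 3 and 4 were below all controls and ELA mice 2 and 5 were among them. Its log2 fold change was -0.51 with a 95% interval of -1.14 to 0.12.

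Of the paired-related homeobox genes, Prrx1 separated the groups with a small difference and Prrx2 did not separate them. Prrx1 was at 47.1, 49.9, 45.6, 50.8 and 48.4 CPM in ELA mice 1 to 5 and at 57.1, 56.1, 55.8 and 68.0 CPM in control mice 1 to 4. All 5 ELA mice were below all 4 control mice, and the ELA values were close together, with a coefficient of variation of 4.36%. Among all tested genes, 1.29% had every ELA mouse below every control mouse, and among the 10 genes 2 did, Prrx1 and Pdgfrb. The log2 fold change of Prrx1 was -0.29 (SE 0.11), with an unadjusted p of 0.0170 and an adjusted p of 0.613 in edgeR. Its fitted ELA level was 81.6% of the control level. Prrx2 was at 15.8, 19.5, 24.6, 22.6 and 36.7 CPM in ELA mice 1 to 5 and at 26.7, 42.0, 29.0 and 37.1 CPM in control mice 1 to 4. ELA mice 1 to 4 lay below every control, and ELA mouse 5 lay above control mice 1 and 3. Its log2 fold change was -0.50 with a 95% interval of -0.996 to 0.0019.

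The upstream sequences of Prrx1 and Twist2 are shown because Prrx1 was the factor whose groups did not overlap and Twist2 the one with the largest difference. Each is the 250 bases before the RefSeq transcript start on GRCm38.p6, read 5′ to 3′ on the strand of the gene, at chr1:163313651-163313900 (minus strand) and chr1:91801211-91801460 (plus strand). Capitals mark TAAT on either strand, the core that many homeodomain proteins bind, with overlapping matches joined. The RefSeq start of Prrx1 lies downstream of the GENCODE start given for the gene in the table, so the sequence shown reaches into that gene's annotated span.
Prrx1: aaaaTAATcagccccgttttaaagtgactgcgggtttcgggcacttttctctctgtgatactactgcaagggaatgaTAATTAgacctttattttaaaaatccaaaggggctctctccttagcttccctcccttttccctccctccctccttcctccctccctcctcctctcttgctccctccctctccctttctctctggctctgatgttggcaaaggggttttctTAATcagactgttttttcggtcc
Twist2: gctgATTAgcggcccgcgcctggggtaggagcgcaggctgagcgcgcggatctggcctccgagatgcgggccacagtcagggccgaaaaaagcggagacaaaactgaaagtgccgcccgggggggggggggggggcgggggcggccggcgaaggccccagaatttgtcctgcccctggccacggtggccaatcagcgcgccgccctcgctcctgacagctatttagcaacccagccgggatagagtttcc
The Prrx1 sequence held 4 matches and the Twist2 sequence 1. Of 32851 RefSeq promoters cut to the same length, 54.9% held at least 1 match and 9.62% held 4 or more. Neither sequence held the E-box CANNTG, the core bound by TWIST and other basic helix-loop-helix proteins, which 66.2% of all promoters held. A match is a description of letters, and no binding was measured.

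The LIM homeobox genes Lhx6 and Lhx8 act together in the oral mesenchyme of the embryo, and the estimate lay further from 0 for Lhx8 than for Lhx6. Lhx8 was at 4.82, 11.8, 13.7, 8.93 and 20.5 CPM in ELA mice 1 to 5 and at 17.5, 24.2, 11.9 and 26.1 CPM in control mice 1 to 4. It had the widest spread of the 10 genes in ELA, a coefficient of variation of 48.9%, and ELA mouse 5 lay among the controls as control mouse 3 lay among the ELA mice. Its log2 fold change was -0.73 with a 95% interval of -1.52 to 0.06. Lhx6 was at 7.395, 9.10, 10.7, 9.59 and 12.7 CPM in ELA mice 1 to 5 and at 8.93, 10.6, 7.37 and 13.5 CPM in control mice 1 to 4. The ranges coincided nearly end to end, and the log2 fold change was -0.03 with a 95% interval of -0.49 to 0.44. The sign of this estimate was not stable, being 0.0053 in limma-voom and 0.14 without control mouse 4.

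Barx1, a homeobox gene of the molar-forming mesenchyme, was at 24.8, 38.7, 38.9, 29.5 and 62.6 CPM in ELA mice 1 to 5 and at 43.1, 53.6, 33.7 and 57.8 CPM in control mice 1 to 4. The highest value of all 9 mice was that of ELA mouse 5, and the lowest were those of ELA mice 1 and 4. Its log2 fold change was -0.27 with a 95% interval of -0.82 to 0.28, and -0.51 without ELA mouse 5. Pax9, a paired-box gene, was at 7.50, 12.3, 6.71, 7.75 and 9.78 CPM in ELA mice 1 to 5 and at 12.4, 13.8, 9.32 and 16.4 CPM in control mice 1 to 4. ELA mice 1, 3 and 4 were below every control and ELA mice 2 and 5 were above control mouse 3 alone. Its ELA mean of 8.82 ± 2.27 CPM (SD, n = 5) compares with 13.0 ± 2.96 CPM (SD, n = 4) among controls. The log2 fold change was -0.56 (SE 0.22), with an unadjusted p of 0.0261 and an adjusted p of 0.666 in edgeR. The strand setting of the counting is not known, and Pax9 overlaps the gene Slc25a21 (1.52 CPM on average) and the antisense transcript Gm15524 (0.574 CPM) on the other strand.

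Of the PDGF receptor genes, Pdgfrb separated the groups and Pdgfra did not. Pdgfrb was at 54.8, 57.7, 43.6, 49.2 and 55.5 CPM in ELA mice 1 to 5 and at 59.7, 66.5, 74.6 and 78.8 CPM in control mice 1 to 4. Every ELA mouse was below every control mouse. The means were 52.2 ± 5.73 CPM (SD, n = 5) and 69.9 ± 8.51 CPM (SD, n = 4), and the log2 fold change was -0.42 (SE 0.13). The unadjusted p of 0.00596 was the smallest of the 10 genes and ranked 209 among all tested genes, and the adjusted p was 0.452 in edgeR's quasi-likelihood test and 0.173 in DESeq2. Pdgfra, the more abundant of the pair in CPM, was at 117, 92.6, 114, 138 and 109 CPM in ELA mice 1 to 5 and at 120, 137, 91.2 and 130 CPM in control mice 1 to 4. The lowest and the highest of the 9 values came from a control and an ELA mouse, and the groups overlapped throughout. Its log2 fold change was -0.07 with a 95% interval of -0.40 to 0.27, and 0.0057 without control mouse 2.

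**Figure D2:**
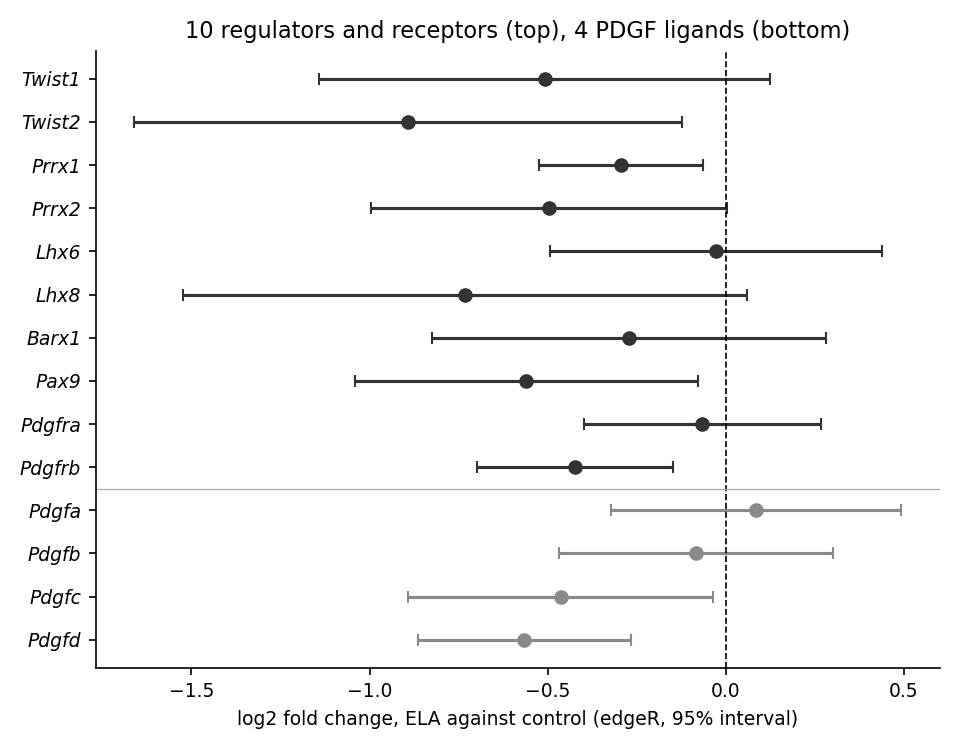
Log2 fold change of ELA against control from edgeR (horizontal axis) with its 95% interval for the 10 genes above the grey line and the 4 PDGF ligands below it. The intervals of Twist2, Prrx1, Pax9 and Pdgfrb lie below 0, as do those of the ligands Pdgfc and Pdgfd, and none of these genes passed the adjusted p.

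Several of the genes were high or low in the same mice. Among ELA mice, mouse 5 had the highest value for 6 genes (Twist1, Twist2, Prrx2, Lhx6, Lhx8 and Barx1), and mouse 1 had the lowest value for 5 (Twist2, Prrx2, Lhx6, Lhx8 and Barx1). Among control mice, mouse 4 was highest for 8 genes and mouse 3 was lowest for 7. Taken as a percentage of the control mean, the median over the 10 genes was 55.2% in ELA mouse 1, 82.5% in mouse 2, 71.4% in mouse 3, 64.9% in mouse 4 and 97.3% in mouse 5. In control mice 1 to 4 it was 90.0%, 110.8%, 74.7% and 124.6%. By this measure ELA mouse 5 lay among the controls and control mouse 3 among the ELA mice. ELA mouse 5 was not the highest ELA mouse for Prrx1, Pax9, Pdgfra and Pdgfrb, where it was at 81.6%, 75.2%, 91.6% and 79.4% of the control mean. Control mouse 3 was at 106.7% for Pdgfrb, for which control mouse 1 was lowest, and control mouse 4 was the highest control for both Prrx1 and Pdgfrb. ELA mouse 5 was also the most deeply sequenced library, with 32110160 counts.

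**Figure D3:**
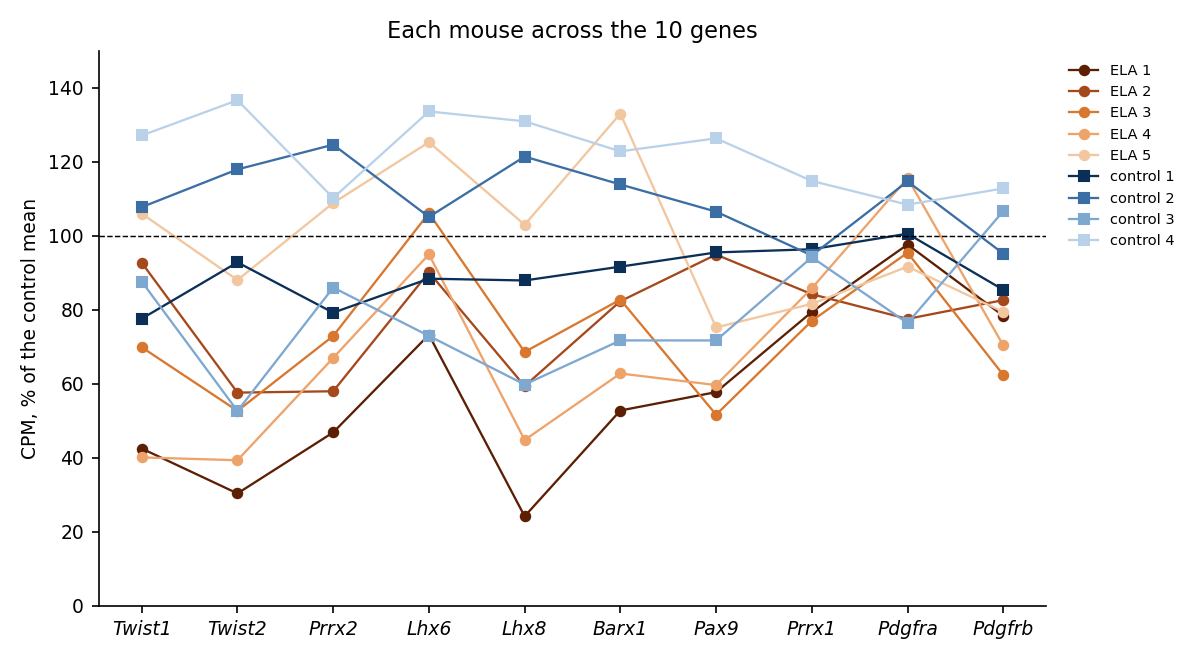
CPM of each gene as a percentage of the control mean (vertical axis), with 1 line per mouse (circles ELA, squares control) and genes side by side on the horizontal axis. The line of ELA mouse 5 is above 100% at Twist1, Prrx2, Lhx6, Lhx8 and Barx1, that of ELA mouse 1 falls to 24.2% at Lhx8, and all ELA lines are below the control lines at Prrx1 and Pdgfrb.

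The summed level of 4 odontoblast markers, Dspp, Dmp1 and Phex among them, was 668.5, 522.2, 1482, 1767 and 3916 CPM in ELA mice 1 to 5 and 1981, 3019, 910.2 and 2736 CPM in control mice 1 to 4. It was highest of all 9 mice in ELA mouse 5, which was the highest ELA mouse for 6 of the 10 genes but above every control only for Barx1. Among controls the sum was lowest in mouse 3, as for 7 of the 10 genes. ELA mouse 2, whose median over the 10 genes was the second highest of the ELA mice, had the lowest sum of all 9 mice. Most of each sum was Dspp, at 385.2 CPM in ELA mouse 2 and 3659 CPM in ELA mouse 5. Dmp1 differed from the sum: ELA mouse 2 had the highest Dmp1 level of the ELA mice, 45.0 CPM. All 4 markers were above 0 in both groups, all had a negative log2 fold change (median -0.37), and 1, Dmp1, was lower at an unadjusted p below 0.05. The part of odontoblast or pulp content in the values of the 10 genes was not tested.

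The log2 ratio of CPM within 4 pairs of related genes was compared between the groups, with an exact two-sided permutation test over mice whose smallest possible p is 0.0159. The ratio of Lhx6 to Lhx8 was 0.61, -0.38, -0.35, 0.10 and -0.69 in ELA mice 1 to 5 and -0.97, -1.18, -0.69 and -0.95 in control mice 1 to 4. It was higher than every control in 4 of 5 ELA mice, and the mean differed by 0.80 (exact permutation p = 0.0317, adjusted over the 4 pairs 0.127). The ratio of Pdgfra to Pdgfrb had a mean of 1.12 ± 0.32 (SD, n = 5) in ELA and 0.76 ± 0.35 (SD, n = 4) in control mice. The difference of 0.36 was slightly above either SD, with 3 of 5 ELA mice above every control, and did not pass the test (exact permutation p = 0.175, adjusted 0.317). The ratio of Twist1 to Twist2 differed by 0.29 (exact permutation p = 0.238, adjusted 0.317) and that of Prrx1 to Prrx2 by 0.24 (exact permutation p = 0.365, adjusted 0.365). Single mice moved these differences: Twist1 to Twist2 was 0.51 without control mouse 3 (exact permutation p = 0.0357, adjusted 0.0714) and 0.19 without control mouse 1. Prrx1 to Prrx2 was 0.41 without ELA mouse 5, 0.12 without ELA mouse 1 and 0.11 without control mouse 2, and Pdgfra to Pdgfrb was 0.20 without control mouse 3. No pair passed after adjustment. With these group sizes and 4 pairs, a pair that alone reached the smallest possible p would not have passed either. A p above the threshold therefore does not show that the ratios were equal.

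**Figure D4:**
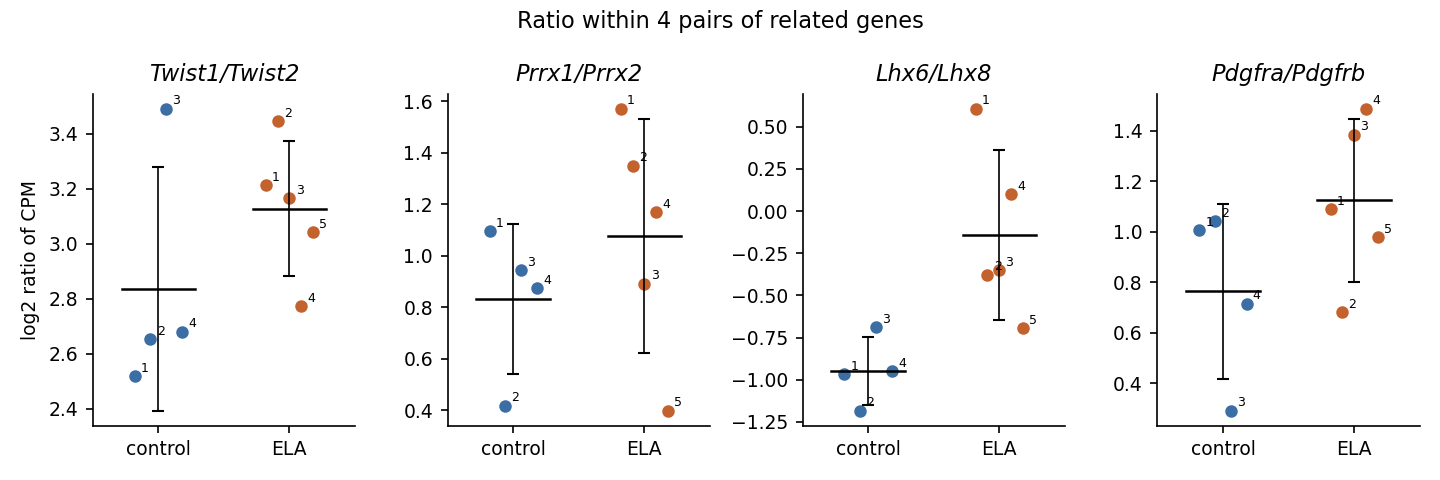
Log2 ratio of CPM within each of 4 pairs of related genes (vertical axes, which do not start at 0) in control and ELA mice, with 1 numbered point per mouse, a line at the mean and bars of 1 SD. For Lhx6/Lhx8, 4 of the 5 ELA mice lie above all control mice.

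The levels of the 10 genes relative to each other were compared per length, as CPM per kilobase of the gene length in the table. In control mice the order was Barx1 (33.6 ± 7.72, SD, n = 4), Twist1 (22.4 ± 4.93), Prrx2 (17.2 ± 3.63), Pdgfrb (12.8 ± 1.55), Pdgfra (11.9 ± 2.00), Lhx8 (7.88 ± 2.56), Prrx1 (5.36 ± 0.53), Pax9 (2.57 ± 0.59), Lhx6 (2.10 ± 0.55) and Twist2 (1.65 ± 0.60). The ranges of neighbours in this order met everywhere except between Prrx1 and Pax9. Within a mouse the order was firmer: each gene was above the next in all 4 control mice, except Pdgfrb over Pdgfra (2 of 4) and Lhx8 over Prrx1 (3 of 4). The order rests on the deposited length of each gene, which is the same for every mouse. Agreement between mice therefore does not test whether that length fits the transcripts present. Barx1 was thus the most abundant per length, whereas Pdgfra had the most reads.

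In the PDGF pathway, 2 of the 4 PDGF ligands were lower at an unadjusted p below 0.05 and none of them passed the adjusted p. Pdgfd, a ligand of the beta receptor, was at 33.3, 27.8, 30.9, 32.8 and 27.0 CPM in ELA mice 1 to 5 and at 40.0, 56.7, 39.7 and 43.2 CPM in control mice 1 to 4. The groups were separate, as they were for Pdgfrb, and the log2 fold change was -0.57 (SE 0.14, adjusted p = 0.243 from edgeR). Pdgfc, a ligand of the alpha receptor, averaged 54.1 ± 12.5 CPM (SD, n = 5) under ELA and 74.6 ± 17.95 CPM (SD, n = 4) among controls, and its log2 fold change was -0.46 (SE 0.20). Pdgfa, also a ligand of the alpha receptor, was at 35.2 ± 5.76 and 33.2 ± 9.51 CPM, and Pdgfb at 26.0 ± 5.69 and 27.5 ± 4.76 CPM. Of 15 genes for proteins that bind active receptors or act just below them, none passed even the unadjusted p and the median log2 fold change was 0.06. Among these, Crkl, Sos1 and Pik3r2, an adaptor, a Ras activator and a PI3-kinase subunit, had the smallest p, with log2 fold changes of 0.20, 0.25 and 0.16.

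Partners of the transcription factors had estimates on both sides of 0. At an unadjusted p below 0.05, 3.56% of all tested genes were higher. Of 11 tested partners, inhibitors and co-acting factors of TWIST proteins, 1 was lower at that p, the zinc-finger factor gene Zeb2 (log2 fold change -0.43), and none was higher, with a median of -0.05. Of 8 tested cofactors and competitors of LIM homeodomain proteins, 2 were lower and none higher, with a median of -0.03. One was Lmo1, which encodes a LIM-only protein: it averaged 6.36 ± 1.74 CPM (SD, n = 5) under ELA and 13.4 ± 2.66 CPM (SD, n = 4) among controls. The groups did not overlap, and its log2 fold change was -1.08 (SE 0.22, adjusted p = 0.137 from edgeR). The other was Lmo2, with a log2 fold change of -0.99 and overlapping groups.

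Other factors and signals of the tooth went in both directions. Of 20 tested transcription factors of jaw and tooth mesenchyme, 10 had a negative and 10 a positive log2 fold change, and the unadjusted p was below 0.05 for 3 of the former and 2 of the latter. Foxf2, a forkhead gene of craniofacial mesenchyme, had a log2 fold change of -0.60, while Msx2 and Gli1, a homeobox gene and a hedgehog target that the dental epithelium can also express, had 0.69 and 1.49. Of 11 tested signals exchanged by epithelium and mesenchyme, 1 was lower (Bmp2, log2 fold change -0.52) and 2 were higher (Eda, 0.38, and Shh, 3.44) at the unadjusted p. Shh was near the limit of detection in controls, at 0.223 ± 0.123 CPM (SD, n = 4), so its fold change is imprecise. None of the genes in these pathway lists passed the adjusted p.

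**Figure D5:**
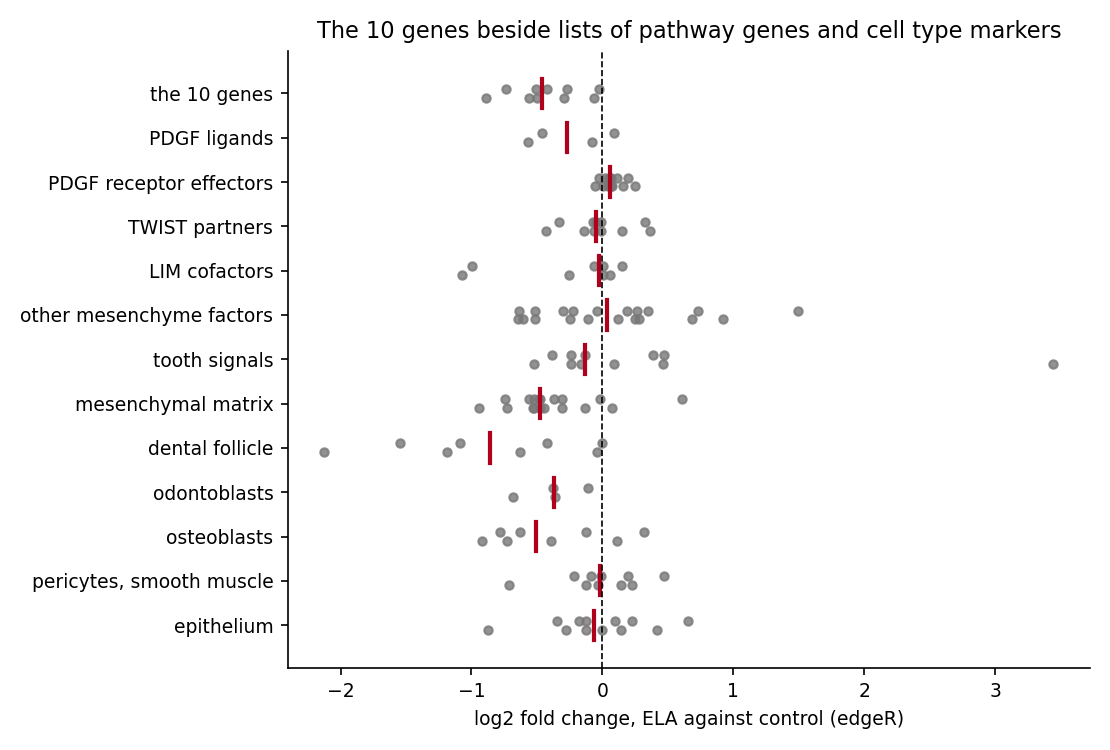
Log2 fold change of ELA against control from edgeR (horizontal axis) for each tested gene (grey points, staggered vertically for legibility) of the 10 genes and of 12 lists, with a red line at each list's median. The median of the 10 genes, -0.46, is close to that of the mesenchymal matrix list, -0.47, and the medians of pericytes and epithelium are near 0. Lists not drawn include those of B lymphocytes (median -1.93), osteoclasts (-0.57), Schwann cells (-0.44) and secretory ameloblasts (0.63).

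Marker lists of the mesenchymal tissues around the enamel organ had negative medians, as did lists of some other cell types. Of 18 genes of mesenchymal matrix and cytoskeleton, 16 had a negative log2 fold change (median -0.47), 9 of them at an unadjusted p below 0.05, and none passed the adjusted p. Their summed level was 14847, 23899, 15975, 17071 and 31256 CPM in ELA mice 1 to 5. In control mice 1 to 4 it was 33772, 31424, 19501 and 38724 CPM. As for most of the 10 genes, ELA mouse 5 was the highest ELA mouse and control mouse 3 the lowest control. Of 8 dental follicle markers, all 8 had a negative value (median -0.86), 5 were lower at the unadjusted p, and 1, Thbs4, a thrombospondin gene, passed the adjusted p. Their sum was 1391, 1380, 820.0, 732.4 and 1012 CPM in ELA mice 1 to 5. In control mice 1 to 4 it was 2765, 2473, 2020 and 1726 CPM, with no overlap between the groups. Here ELA mouse 1 was the highest ELA mouse and control mouse 4 the lowest control. Osteoblast markers had a median of -0.51, with 3 of 8 lower and 1 higher at the unadjusted p, and sums of 2395 to 3676 and 2791 to 3576 CPM. Pericyte and smooth muscle markers, of cells known for Pdgfrb, had a median of -0.02, with none of 10 past the unadjusted p and sums of 749.6 to 1131 CPM in ELA and 765.2 to 1004 CPM in control mice. Among lists that are not mesenchymal, B lymphocyte markers had a median of -1.93, with 6 of 6 negative, 5 lower at the unadjusted p, and sums of 1.84 to 6.30 CPM in ELA and 13.1 to 24.5 CPM in control mice, which did not overlap. Osteoclast markers had a median of -0.57, with 7 of 7 negative and 2 lower, and Schwann cell markers one of -0.44, with 4 of 6 negative and 2 lower. Secretory ameloblast markers had a median of 0.63, with 6 of 6 positive and 4 higher at the unadjusted p, of which Amelx passed the adjusted p. General epithelial markers had a median of -0.06 and sums of 10918 to 17216 and 13243 to 20576 CPM. Of these 12, 1 was higher at the unadjusted p (Krt17, log2 fold change 0.65) and none was lower. Maturation ameloblast markers had a median of 0.05, with 2 of 8 higher and none lower. Endothelial and macrophage markers had medians of -0.09 and -0.002, with none past the unadjusted p. None of the markers in these lists was at 0 in all libraries, and their part in the values of the 10 genes was not tested.

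Over the 9 mice, the genes whose log2 CPM was most like the mean of the 10 scaled genes were C1qtnf6 (Pearson r = 0.979), Mxra8 (0.978), Dio3os (0.970), Pycr1 (0.966) and Aebp1 (0.963). These values describe likeness over 9 libraries that share the difference between conditions, and they were the highest of all tested genes outside the 10. Mxra8, the gene of a matrix-remodelling-associated protein, averaged 96.6 ± 20.6 CPM (SD, n = 5) under ELA and 147.8 ± 34.5 CPM (SD, n = 4) among controls. Aebp1 was at 102.1 ± 22.6 and 138.9 ± 23.4 CPM, and C1qtnf6 at 64.9 ± 12.2 and 82.8 ± 12.9 CPM. Their log2 fold changes were -0.61, -0.44 and -0.35, and none passed the adjusted p.

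The genes lie on 7 autosomes, and their positions in the table are those of GENCODE M21 on GRCm38. Twist2 and Prrx1 are on chromosome 1 (91801461 to 91848028 and 163245119 to 163313710), Prrx2 and Lhx6 on chromosome 2 (30834972 to 30881251 and 36081953 to 36105408) and Lhx8 on chromosome 3 (154306294 to 154330659). Pdgfra is on chromosome 5 (75152292 to 75198215), Twist1 and Pax9 on chromosome 12 (33957671 to 33959829 and 56691767 to 56712822), Barx1 on chromosome 13 (48662998 to 48666507) and Pdgfrb on chromosome 18 (61045150 to 61085061).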

How the data were processed

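RNA from first-molar enamel organs of 9 pups was sequenced with 1 library per mouse, 5 ELA and 4 control. The authors deposited whole-number read counts per Ensembl gene. The submitters' processing notes name CASAVA, HISAT and HISAT2. The counting program is not given in the sources used here, nor are its strand setting and the build. Of 54532 genes, 54495 are in GENCODE M21 and 98.3% have its start and end. Every column was assigned to its mouse by title. Gene lengths deposited with the counts were used only for levels per kilobase.

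Counts were compared with edgeR 4.0.16 in R 4.3.3 (filterByExpr with a count minimum of 10, TMM, robust glmQLFit, glmQLFTest, Benjamini-Hochberg over 15909 genes, threshold 0.05). Standard errors are the log2 fold change over the root of the F statistic, and 95% intervals use the fit's degrees of freedom. The study's methods name DESeq2, which served in version 1.42.0 as an alternative, as did limma-voom 3.58.1. All 3 were run on a single simulated data set, drawn with edgeR's dispersions and independent mice. On it DESeq2 exceeded its nominal share of false calls and edgeR did not. Likeness between pups that share a title number was not simulated, so this draw does not rank the methods on the real data. Other scalings, no filter, sums per title number and leaving out each mouse were also tried, and non-overlap without ELA mouse 4 or with plain totals, and ratios with plain totals, were added after seeing the data. Ratios used log2 CPM with a prior count of 2 and exact permutation tests (scipy 1.17.1).

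Members and lists were chosen with earlier results of these data known. Named genes are all members and PDGF ligands, up to 3 genes of smallest unadjusted p in each other list, and the 5 genes whose log2 CPM correlated best with the members' mean. Overlapping genes of Pax9 were named after their values were seen.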

Additional observations from a re-analysis of the deposited data

Results flagged for a closer look

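Among the values of single mice, 5 stood far from the rest of their group by Dixon's test at the 95% level, which chance gives in about 1 of 20 groups. The groups of 4 or 5 mice examined numbered 72. Prrx1 was at 68.0 CPM in control mouse 4, above the other 3 controls, which were at 55.8 to 57.1 CPM. The log2 ratio of Twist1 to Twist2 was 3.49 in control mouse 3, against 2.52 to 2.68 in the other controls. The remaining 3 were sums of marker lists: neuronal markers at 591.3 CPM in ELA mouse 4, B lymphocyte markers at 24.5 CPM in control mouse 3 and Schwann cell markers at 132.2 CPM in control mouse 4. Their part in the values of the 10 genes was not tested.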

How the results depend on the processing

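None of the 10 genes passed the adjusted p under any of 15 alternatives (smallest 0.173, Pdgfrb in DESeq2), and 8 of 10 had a negative log2 fold change under every one. Lhx6 was positive in limma-voom (0.0053) and without ELA mouse 1 (0.062), ELA mouse 2 (0.0026) or control mouse 4 (0.14), and Pdgfra without ELA mouse 2 (0.0043) or control mouse 2 (0.0057). With 1 mouse left out, the log2 fold changes ranged as follows: Twist1 -0.71 to -0.36, Twist2 -1.15 to -0.71, Prrx1 -0.32 to -0.22, Prrx2 -0.71 to -0.37, Lhx6 -0.15 to 0.14, Lhx8 -1.02 to -0.53, Barx1 -0.51 to -0.14, Pax9 -0.71 to -0.43, Pdgfra -0.18 to 0.0057, Pdgfrb -0.49 to -0.36. The number of the 10 genes past an unadjusted p of 0.05 was 1 to 8 in those fits and 7 with counts summed per title number, where 2 sums stand against 2. The share of all tested genes past that p was not computed for the summed counts. The 7 therefore cannot be set beside the count of the main fit. Over all tested genes, 10 passed the adjusted p, and 0 to 23 did with 1 mouse left out (0 without control mouse 1, 2 or 4 and 23 without ELA mouse 2), 140 in DESeq2, 38 with no filter on low counts, 5 with sums per title number and 4 with plain library totals. The cause of these differences was not tested. The 4 ratios kept their sign in every alternative and none passed after adjustment, which no single pair could have done alone. The exact permutation p for Lhx6 to Lhx8 was 0.0286 to 0.0714 with 1 mouse left out, where the smallest possible p is larger than with all 9 mice. No paired analysis was possible because no number in the titles marks mice of both conditions as a pair. With 4 and 5 mice, low counts limit Twist2, which had as few as 29 reads in a library.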
